A study of Mus musculus with 4 samples.

Results

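The insulin-like growth factor (IGF) axis was described in embryonic mouse kidney through 10 of its genes: the ligand Igf1, the receptor Igf1r, the docking protein Irs2 and the 7 binding proteins Igfbp1 to Igfbp7. They were taken as every probe set of the array whose platform annotation gives exactly 1 gene symbol and whose symbol is 1 of these 10. This gave 10 of 18193 genes, with 26 probe sets of 45037, of which 25 were bright enough to be tested among 27022 tested in all. Kidneys came from C57BL/6 embryos at embryonic day 15, carried by C57BL/6 dams. Dams on the iron-deficient diet ate a synthetic diet with about 2 to 6 ppm iron, and control dams ate a diet with 220 ppm iron. Feeding started at 8 weeks of age, 3 weeks before gestation, and went on through pregnancy. There were 2 pools per diet, each of 16 kidneys and each hybridised to 1 Affymetrix mouse whole-genome array. No label ties a pool to a litter, so p-values reflect how far these pools differ, and that spread may be technical.

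Igf1 and its relative Igf2 are secreted growth factors that act through the receptor tyrosine kinase Igf1r. The activated receptor recruits docking proteins such as Irs2 and passes the signal to phosphoinositide 3-kinase, Akt and mTOR. Binding proteins hold most of the ligand outside the cell, and proteases release it by cutting them. Igfbp1 is a classical target of insulin, which represses it through FoxO factors, and Igfbp1 and Igfbp3 are known to be induced by low oxygen.

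Iron-deficient pool 1 differed from the other 3 arrays. Its log2 signals correlated with theirs at 0.883 to 0.913 across tested probe sets, against 0.978 between the control pools, and probe sets are not independent replicates. On it the control for the 5′ end of 18S ribosomal RNA read 2144.5, against 243.0 in iron-deficient pool 2 and 291.9 and 289.4 in the control pools. The Y-linked gene Eif2s3y read 253.6 and 20.8 in the iron-deficient pools, against 594.5 and 600.0 in the control pools, although every sample is labelled female. The Y-linked Kdm5d read 64.2 and 3.1 against 117.7 and 93.8. The brightest probe set of the X-linked Xist read 3427.3 and 1543.3 against 926.6 and 167.8. Sex-linked signals thus differed between the diets, and embryo sex cannot be told apart from diet here. All 9 analysed markers of embryonic kidney were bright enough to be tested, with the nephron regulator Wt1 at 1649.4 and 1630.7 in iron-deficient pools and 1301.7 and 1324.1 in control pools. The 10 proximal tubule markers had a median log2 difference of -2.6, and all were lower without overlap, against 26.0% of all genes. Of 13 hypoxia-responsive genes, 12 had both iron-deficient values above both control values, against 13.1% of all genes on their brightest probe set, with a median log2 difference of 1.34. None passed an adjusted p of 0.05 by limma, and 10 were higher at an unadjusted p under 0.05, against 1.26% of all genes. The hypoxia and marker lists were chosen with earlier results of these data known, so their counts are description and no test. Values below are array signals on the linear scale unless given as log2 differences, which are iron-deficient minus control with their standard error (SE).

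The 250 bases upstream of the annotated start are shown for Igfbp1, Igfbp2, Igfbp3 and Irs2. The first 3 lay at least 1.5-fold above both control pools in iron-deficient pool 2. Irs2 is the other classical insulin-responsive member. Sequences are RefSeq's for build GRCm38.p6, written 5′ to 3′ on the strand of the gene. Capitals mark the core of hypoxia response elements (ACGTG or GCGTG) and the core of insulin response elements (CAAAACA or CAAAATA), each searched on both strands. The Igfbp1 window lies at chr11:7197537-7197786, on the plus strand. The Igfbp2 window lies at chr1:72824230-72824479, on the plus strand, and is the first of 2 listed for that gene. The Igfbp3 window lies at chr11:7213924-7214173 and the Irs2 window at chr8:11008930-11009179, both on the minus strand.
Igfbp1: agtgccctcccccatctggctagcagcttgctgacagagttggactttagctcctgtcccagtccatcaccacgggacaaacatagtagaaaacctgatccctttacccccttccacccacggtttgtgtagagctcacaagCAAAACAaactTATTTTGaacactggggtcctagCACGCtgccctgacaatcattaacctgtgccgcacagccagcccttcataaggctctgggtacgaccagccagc
Igfbp2: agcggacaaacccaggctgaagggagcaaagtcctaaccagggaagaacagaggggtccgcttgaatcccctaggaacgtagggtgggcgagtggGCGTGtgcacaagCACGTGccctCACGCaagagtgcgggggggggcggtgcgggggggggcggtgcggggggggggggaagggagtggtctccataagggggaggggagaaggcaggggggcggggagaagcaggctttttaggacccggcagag
Igfbp3: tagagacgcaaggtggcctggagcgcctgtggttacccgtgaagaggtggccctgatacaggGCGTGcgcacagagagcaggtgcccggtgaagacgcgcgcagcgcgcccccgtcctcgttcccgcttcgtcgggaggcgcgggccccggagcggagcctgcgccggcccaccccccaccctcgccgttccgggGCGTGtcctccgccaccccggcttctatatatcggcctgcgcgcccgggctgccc
Irs2: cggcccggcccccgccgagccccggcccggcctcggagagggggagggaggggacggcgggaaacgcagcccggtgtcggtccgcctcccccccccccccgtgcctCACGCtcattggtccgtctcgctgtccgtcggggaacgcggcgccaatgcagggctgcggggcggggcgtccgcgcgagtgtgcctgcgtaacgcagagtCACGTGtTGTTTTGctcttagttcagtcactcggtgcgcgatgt

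The Igfbp1 window holds 2 insulin response cores in opposite orientation, from base -108 to -102 and from -97 to -91 relative to the start. Among 32851 windows of the same length, 9.14% hold at least 1 such core and 0.931% hold 2 or more. Irs2 holds 1, from -37 to -31, just downstream of a palindromic hypoxia core that matches on both strands. Igfbp2 holds 4 hypoxia core matches, including such a palindrome, which 2.58% of windows reach or exceed, a threshold chosen after the matches were seen. Igfbp3 holds 2, and Igfbp1 holds 1. All 10 genes had a window, 11 in all, and 7 of these held a hypoxia core against 38.6% of all windows. The second Igfbp2 window held 0. Member windows were from 49.6% (Igfbp6) to 77.6% (Igf1r) G or C, and the comparison was not matched for this content. A match describes letters only, and overlapping matches of a palindrome were counted on each strand.

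None of the 25 tested probe sets of the 10 genes passed the comparison of diets. Limma adjusted p-values ran from 0.852 to 0.988, and the smallest unadjusted p was 0.0836, so 0 of 25 lay under 0.05 unadjusted, where 3.96% of all tested probe sets did (1.14% higher and 2.81% lower). At the adjusted threshold 0.0% of all tested probe sets were called. Both iron-deficient values exceeded both control values for 5 member probe sets, against 11.8% of all tested, and lay under both for 7, against 25.0%. Together these 12 are 48.0% of the member probe sets, while the diets did not overlap for 36.7% of all tested probe sets. The 5 belong to Igf1r, Igfbp3 and Igfbp5, and the 7 to Igf1, Igfbp4 and Igfbp7, so several share a gene. With 1 probe set per gene, the diets did not overlap for 3 of the 10 genes, against 39.0% of all genes. Centring every array on its median moved the median difference of all tested probe sets from -0.103 to 0.093. The split of member probe sets then became 9 above and 5 below, against 21.7% and 14.9% of all tested probe sets. After quantile normalization it was 7 and 7, against 14.4% and 20.5%.

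**Figure D1:**
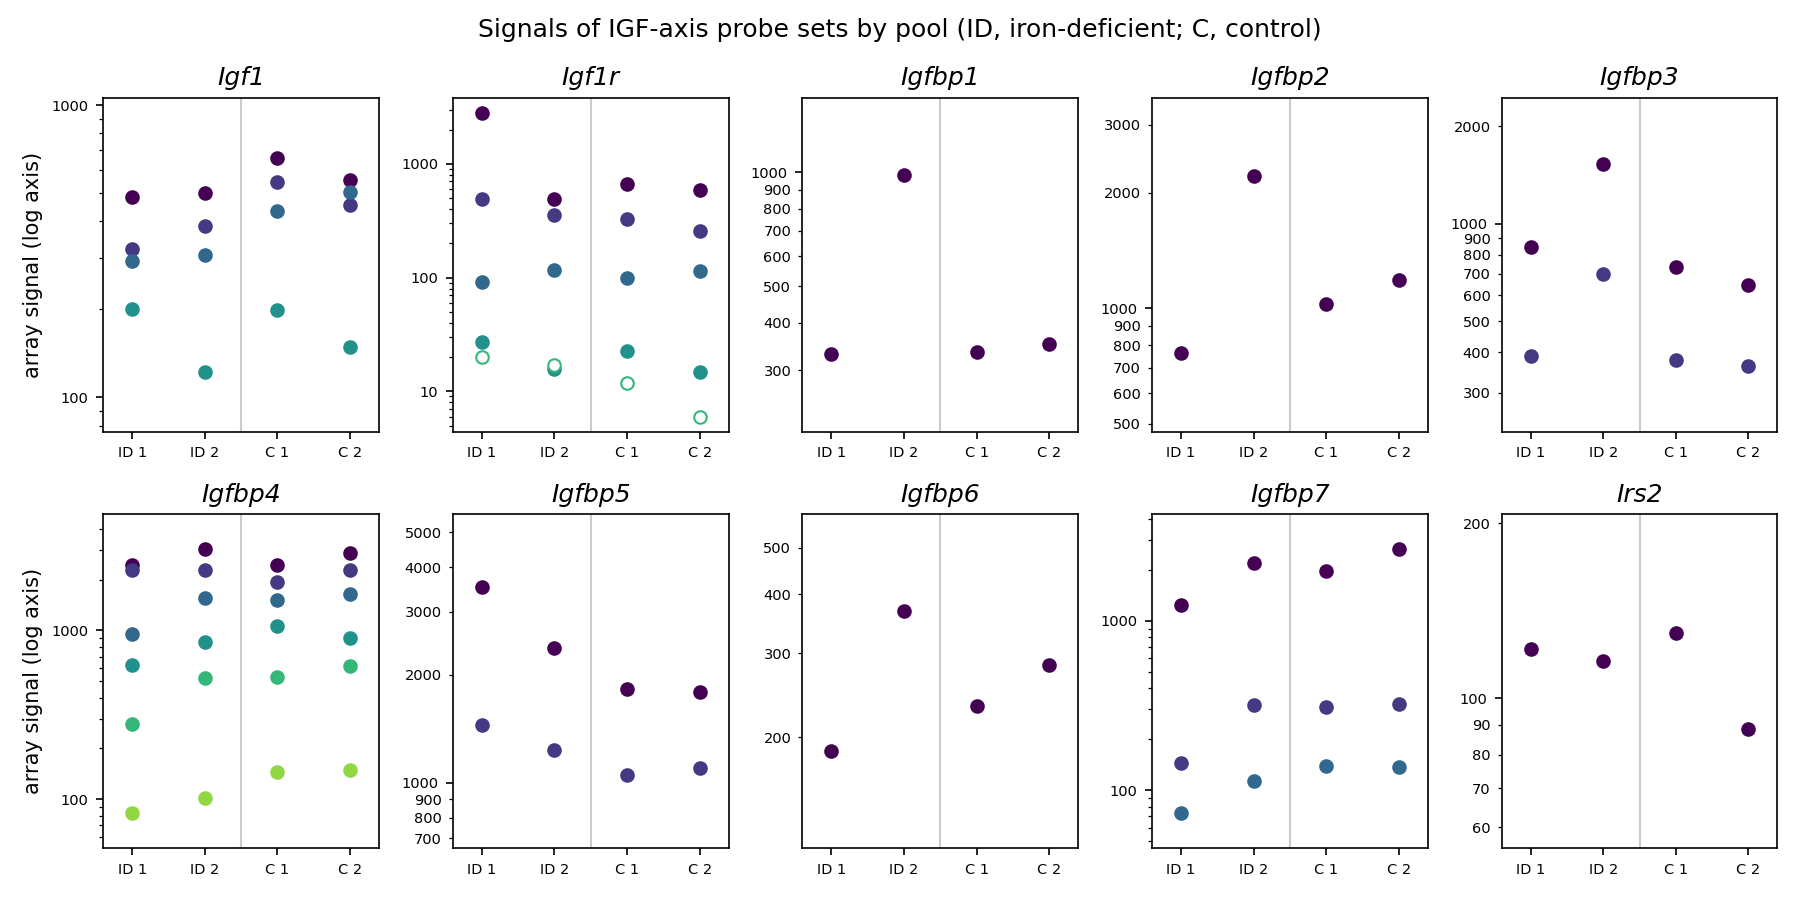
Array signal on a log axis (no unit) of each probe set in each pool, 1 panel per gene, with iron-deficient pools (ID) left of control pools (C) and 1 colour per probe set. Filled points were tested, and the open points of Igf1r mark the probe set too dim for the test. Igfbp1, Igfbp2 and Igfbp3 are brightest in iron-deficient pool 2, while the brightest Igf1r probe set stands out in iron-deficient pool 1 at 2786.1.

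Igf1, the ligand that drives postnatal and part of fetal growth, had lower signals in the iron-deficient pools on 3 of its 4 probe sets. The probe set with the smallest p, 1452014_a_at, read 293.7 and 306.1 in iron-deficient pools, against 432.9 and 504.0 in control pools. The pools of a diet lay close together here and the diets did not overlap, with a log2 difference of -0.64 ± 0.32 (SE, 95% interval -1.43 to 0.15, limma adjusted p = 0.852). Relative to the median of all tested probe sets it was -0.54. Probe set 1437401_at read 320.9 and 384.5 in iron-deficient pools and 544.2 and 454.9 in control pools, a difference of -0.50 ± 0.33. The brightest, 1434413_at, read 485.0 and 498.4 in iron-deficient pools and 661.2 and 555.9 in control pools (-0.30 ± 0.32), and its diets overlapped once arrays were centred on their median or quantile-normalized. The dimmest, 1419519_at, read 201.0 and 122.0 in iron-deficient pools and 198.7 and 148.5 in control pools, so the diets overlapped, and its sign depended on the scaling. In these bulk samples fewer cells of a type and less RNA per cell cannot be told apart.

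Igf1r, the receptor for both ligands, gave differences of unlike size between its probe sets. The brightest, 1428967_at, read 2786.1 and 494.4 in iron-deficient pools, against 670.4 and 588.1 in control pools. Iron-deficient pool 1 was 4.16-fold above the higher control pool, whereas iron-deficient pool 2 lay below both, and the difference of 0.90 ± 0.82 became -0.34 without iron-deficient pool 1. Probe set 1452982_at, designed from the same transcript record, read 492.2 and 356.8 in iron-deficient pools and 324.5 and 258.8 in control pools (0.53 ± 0.35). It was the only tested Igf1r probe set without overlap between the diets. Probe set 1426565_at read 92 and 115.5 in iron-deficient pools and 99.9 and 113.5 in control pools (-0.05 ± 0.33, 95% interval -0.87 to 0.77), and a dimmer one read 27.3 and 15.7 against 22.5 and 14.8. On the deposited scale 3 of the 4 tested probe sets had a positive difference, and all 4 did after median centring (0.15 to 1.10) and after quantile normalization (0.10 to 0.85).

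The genes whose brightest probe set was most like that of Igf1r over the 4 pools were 9430078G10Rik, AY036118, Foxk1, Tmem87a and Fign. Likeness was the Euclidean distance of log2 signals centred on their mean, over 12997 genes, and ran from 0.124 to 0.168 for these 5. Foxk1, a forkhead transcription factor, read 2040.4 and 368.3 in iron-deficient pools and 457.9 and 467.9 in control pools. AY036118 read 717.4 and 113.4 in iron-deficient pools and 176.3 and 147.9 in control pools. All 5 were high in iron-deficient pool 1 alone, which follows from how they were chosen. The 5′ 18S control signal was also high in that pool, and the part of that array in these values was not tested.

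Irs2, which couples insulin and IGF receptors to phosphoinositide 3-kinase, read 121.4 and 116.1 in iron-deficient pools, against 129.6 and 88.4 in control pools. Both iron-deficient values lay between the control values, and the difference was 0.15 ± 0.35 (95% interval -0.73 to 1.03). After median centring or quantile normalization both iron-deficient values lay above both control values (0.35 and 0.31).

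**Figure D2:**
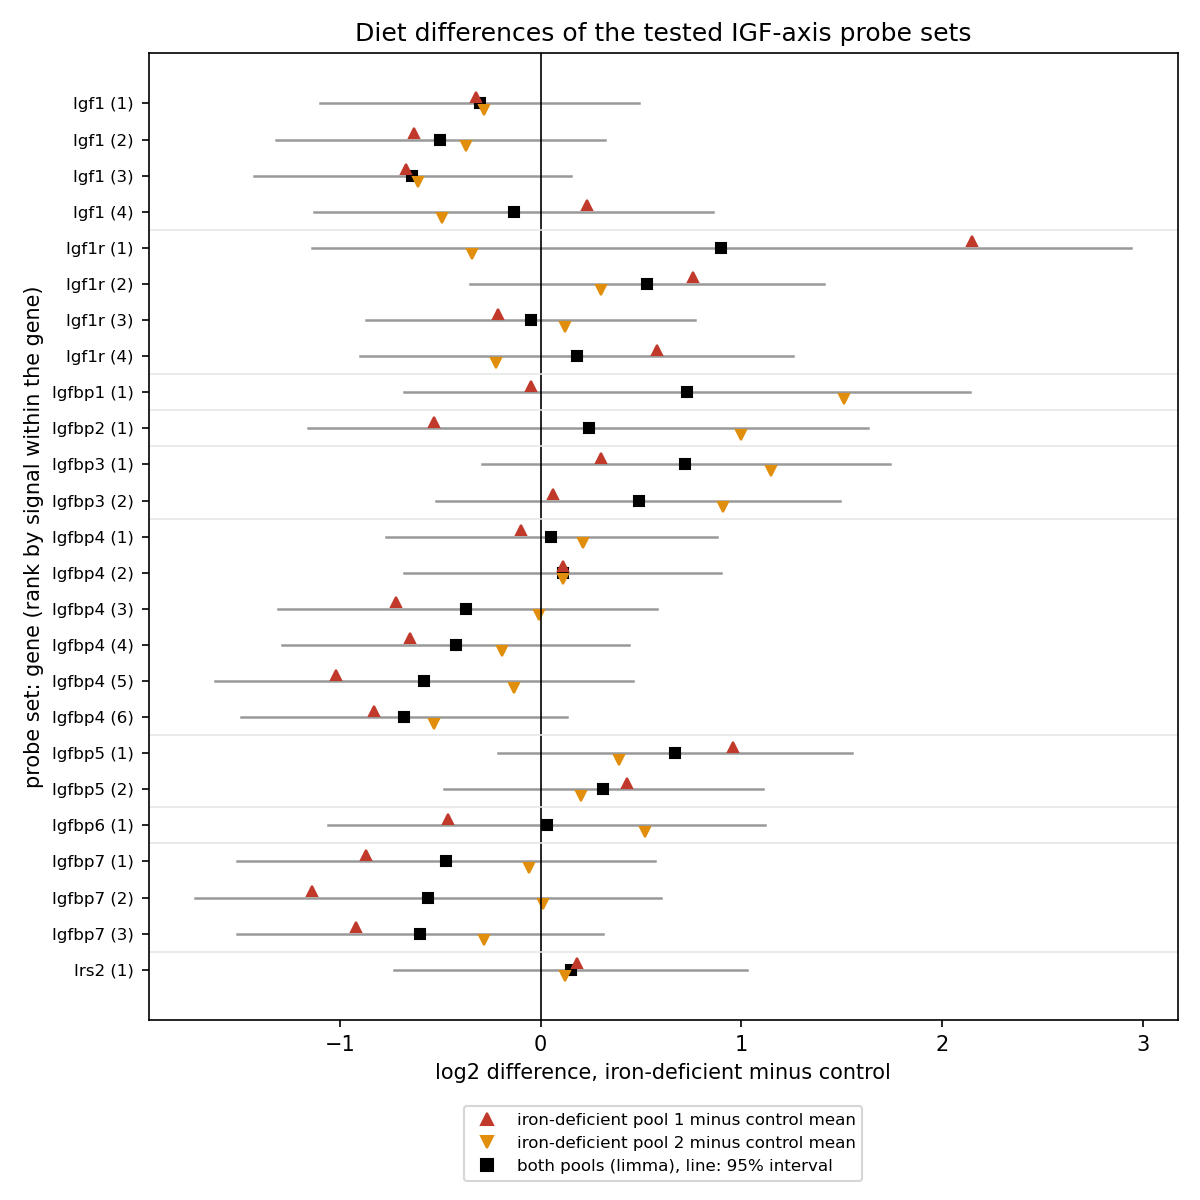
Difference in log2 signal (iron-deficient minus control) for the 25 tested probe sets, listed by gene with their rank by signal within the gene in brackets. Squares with lines are limma estimates with 95% intervals, and triangles give each iron-deficient pool minus the control mean. Every interval includes 0, and the triangles lie far apart for Igfbp1 (-0.05 and 1.51) and the brightest Igf1r probe set (2.15 and -0.34).

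Igfbp1, Igfbp2 and Igfbp3 shared a pattern in which iron-deficient pool 2 had the highest signal of the 4. Igfbp6 (368.0), the brightest Igfbp4 probe set (3045.5) and Igf1r 1426565_at (115.5) were also highest in that pool, by smaller margins. Igfbp1 read 330.7 and 980.9 in iron-deficient pools, against 335.8 and 351.3 in control pools. Pool 1 sat just under the controls and pool 2 was 2.79-fold above the higher of them, so the difference of 0.73 ± 0.57 is an average of -0.05 and 1.51. After median centring or quantile normalization pool 1 also lay above the controls. Igfbp2, a binding protein abundant in fetal tissues, read 763.2 and 2202.6 in iron-deficient pools and 1024.2 and 1182.5 in control pools. Its iron-deficient pools fell on opposite sides of both controls, with a difference of 0.24 ± 0.56.

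Igfbp3, the main carrier of IGFs in adult serum, was higher in both iron-deficient pools on both of its probe sets. The brighter, 1423062_at, read 847.2 and 1528.4 in iron-deficient pools, against 736.7 and 645.1 in control pools (0.72 ± 0.41, 95% interval -0.29 to 1.74, limma adjusted p = 0.852). The other, 1458268_s_at, read 388.9 and 699.1 in iron-deficient pools and 380.0 and 364.0 in control pools (0.49 ± 0.40). Pool 1 exceeded the higher control by only 1.02-fold there and pool 2 by 1.84-fold, and without pool 2 the difference was 0.06. Both probe sets stayed without overlap after median centring and after quantile normalization. Igfbp3 is the next protein-coding gene after Igfbp1 on chromosome 11, as Igfbp5 is after Igfbp2 on chromosome 1.

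In iron-deficient pool 2, 4 of the 25 member probe sets, from Igfbp1, Igfbp2 and Igfbp3, lay at least 1.5-fold above both control pools, where 3.19% of all tested probe sets did. In iron-deficient pool 1 that count was 3, from Igf1r and Igfbp5, against 15.4% of all tested. At least 1.5-fold below both controls lay 6 member probe sets in pool 1, all of Igfbp4 and Igfbp7, against 25.4% of all tested, and 0 in pool 2, against 6.32%. With no limit on size, 8 were above and 14 below both controls in pool 1 (34.9% and 52.6% of all tested), and 10 above and 9 below in pool 2 (31.3% and 40.5%). The iron-deficient pools fell on opposite sides of both controls for 6, against 28.4% of all tested. These counts come from 1 pool each and were not tested. Liver and skeletal muscle genes gave signals in the control pools too, and their sums were highest in iron-deficient pool 2. The 14 liver genes analysed summed to 366.5 and 3380.2 in iron-deficient pools, against 1791.8 and 1604.5 in control pools. In pool 2, 8 of 8 tested members lay above both controls, as did 4924 of all 12997 genes. In pool 1, 7 of them lay below both, as did 7820 of all genes. No liver gene was at 0 in any pool, and albumin (Alb) read 17.3 and 372.6 in iron-deficient pools and 45.3 and 31.4 in control pools. On the deposited scale Igfbp1, Igfbp2, Igfbp6 and the liver sum were lowest in iron-deficient pool 1 and highest in iron-deficient pool 2. In pool 1 Igfbp1 differed from the control mean by only -0.05 (log2), against -2.21 for the liver sum. After median centring or quantile normalization Igfbp1 was no longer lowest in that pool. The 7 skeletal muscle genes summed to 330.6 and 2069.9 in iron-deficient pools and 413.8 and 289.9 in control pools, again highest in pool 2. The part of liver or muscle RNA in the binding protein signals was not tested.

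The summed signal of the hypoxia-responsive genes was 33080.3 and 32317.8 in iron-deficient pools, against 13913.1 and 16423.2 in control pools. The sums of the iron-deficient pools were close, but bright genes weigh most in such a sum. Single genes of the list did differ between the pools. Ankrd37 lay 0.67 and 1.89 above the control mean in iron-deficient pools 1 and 2 (log2), Car9 1.35 and 2.27, and Ndrg1 0.22 and 0.99. Higher in pool 1 were Adm (2.85 and 1.99), Pdk1 (1.62 and 1.23), Slc2a1 (1.51 and 1.17), Pgk1 (1.07 and 0.76) and Hk2 (1.63 and 1.57). The other genes of the list were higher in pool 2. The 1 of 13 whose diets overlapped was Egln3, the oxygen-sensing prolyl hydroxylase, named after its values were seen. It read 356.0 and 917.2 in iron-deficient pools and 397.3 and 368.4 in control pools, a layout close to that of Igfbp1. The part of a hypoxia response in the binding protein signals was not tested.

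**Figure D3:**
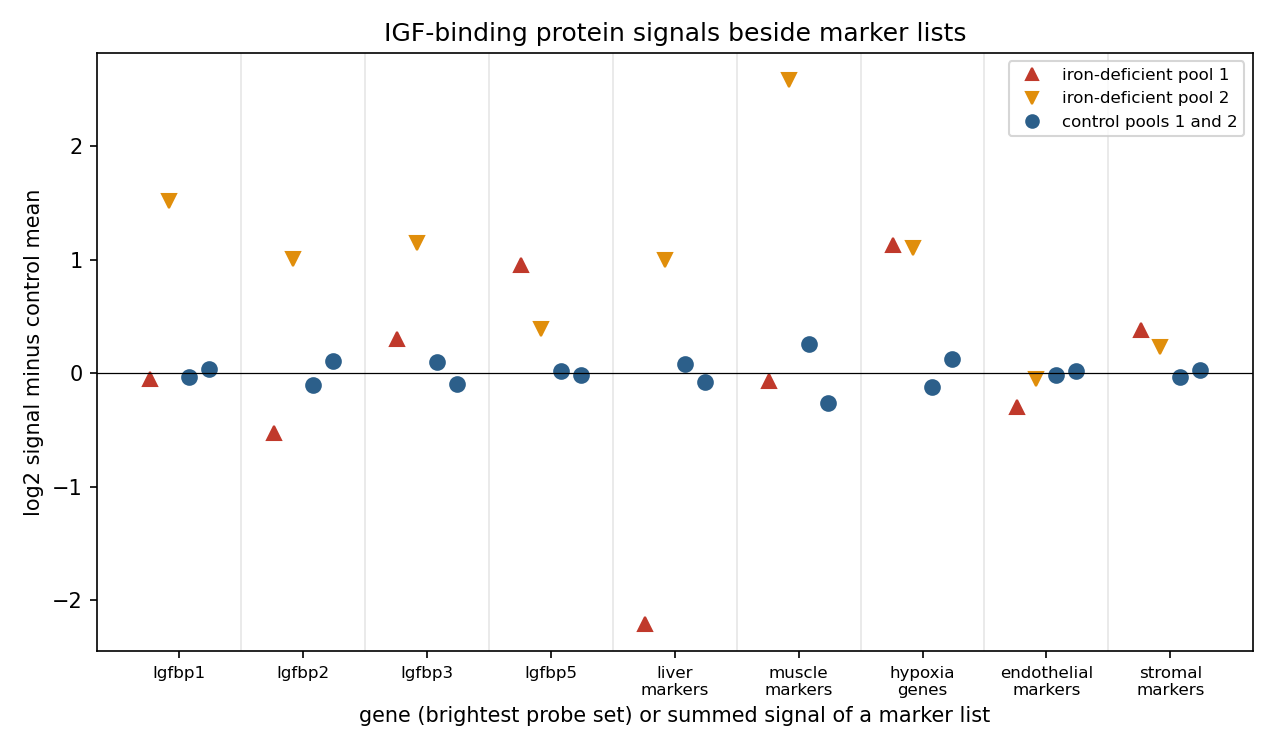
Log2 signal of each pool minus the mean of the control pools, for the brightest probe set of 4 binding protein genes and for the summed signal of 5 marker lists. Upward triangles are iron-deficient pool 1, downward triangles iron-deficient pool 2 and circles the control pools. Liver (-2.21 and 1.00) and muscle sums (-0.07 and 2.58) differ between the iron-deficient pools. The hypoxia sum is close (1.13 and 1.10), although single genes of that list differ between these pools in both directions.

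Igfbp5, a binding protein that also attaches to extracellular matrix, was higher in both iron-deficient pools on both probe sets. The brighter, 1452114_s_at, read 3512.8 and 2375.0 in iron-deficient pools, against 1830.7 and 1792.5 in control pools. The control pools lay within 1.02-fold of each other, and the difference was 0.67 ± 0.35 (95% interval -0.21 to 1.55, limma adjusted p = 0.852). The second probe set, 1422313_a_at, read 1453.2 and 1233.6 in iron-deficient pools and 1052.9 and 1101.1 in control pools (0.31 ± 0.32). Unlike Igfbp1 to Igfbp3, both were highest in iron-deficient pool 1, and both stayed without overlap under median centring and quantile normalization. Of 9 stromal markers, 4 were higher without overlap (13.1% of all genes), 0 were lower without overlap, and Meis1 (-0.45), Pdgfrb (-0.31) and Tcf21 (-0.13) had negative differences. The list summed to 17350.2 and 15618.8 in iron-deficient pools and 13007.4 and 13641.0 in control pools, and their part in the Igfbp5 signal was not tested.

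Igfbp4, which restrains IGF action until it is cut by the protease Pappa, had 6 tested probe sets that did not share a direction. After median centring its 2 brightest lay above both controls in both iron-deficient pools, and their sign turned after quantile normalization. On the scale as deposited they differed by 0.05 ± 0.33 and 0.11 ± 0.32, with overlapping diets. The dimmest, 1421991_a_at, had the smallest p of all members and read 82.4 and 102.0 in iron-deficient pools, against 144.8 and 148.9 in control pools (-0.68 ± 0.32, 95% interval -1.49 to 0.13, limma adjusted p = 0.852). Probe set 1421992_a_at read 280.2 and 521.3 in iron-deficient pools and 527.3 and 615.6 in control pools (-0.58 ± 0.42), a difference of -0.13 without iron-deficient pool 1. The remaining pair, 1437406_x_at and 1423757_x_at, differed by -0.42 ± 0.35 and -0.37 ± 0.38, or -0.19 and -0.01 without iron-deficient pool 1, and the suffix of such probe sets marks possible binding of other transcripts.

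Igfbp7, a low-affinity binding protein of vessel walls, was lower in iron-deficient pool 1 than in both controls on its 3 probe sets. The brightest, 1423584_at, read 1248.2 and 2188.4 in iron-deficient pools and 1963.5 and 2667.2 in control pools (-0.47 ± 0.42). Probe set 1437804_at read 143.9 and 318.8 in iron-deficient pools and 311.3 and 321.5 in control pools, so that pool 2 lay between the controls. On the deposited scale only the dimmest, 1423585_at, did not overlap, with 72.9 and 113.6 in iron-deficient pools and 139.3 and 136.2 in control pools (-0.60 ± 0.36), and after quantile normalization the brightest did not overlap either (-0.57). In iron-deficient pool 2 alone the differences from brightest to dimmest were -0.06, 0.01 and -0.28. Summed endothelial markers were 5295.0 and 6293.6 in iron-deficient pools and 6439.4 and 6575.0 in control pools. In iron-deficient pool 1, 7 of the 10 lay below both controls, as did 7820 of all 12997 genes. Flt1 (2.39 on the log2 scale), Cdh5 (1.6) and Pecam1 (0.77) lay above both, as did 3911 of all genes. The part of these cells in the Igfbp7 signal was not tested.

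Igfbp6, which prefers Igf2 as its ligand, read 187.1 and 368.0 in iron-deficient pools, against 232.4 and 283.7 in control pools. The iron-deficient pools lay on opposite sides of the controls and averaged to a difference of 0.03 ± 0.43. Across the 16 tested probe sets of the 7 binding proteins, 13 were brighter in iron-deficient pool 2 than in pool 1, as were 56.4% of all tested probe sets. The spread between the 2 iron-deficient pools of the 25 member probe sets was 0.86 (SD of log2 differences), against 0.27 between the control pools. Over all tested probe sets these spreads were 0.964 and 0.504, so the members varied less than the array as a whole in both diets. The comparison was not matched for brightness.

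**Figure D4:**
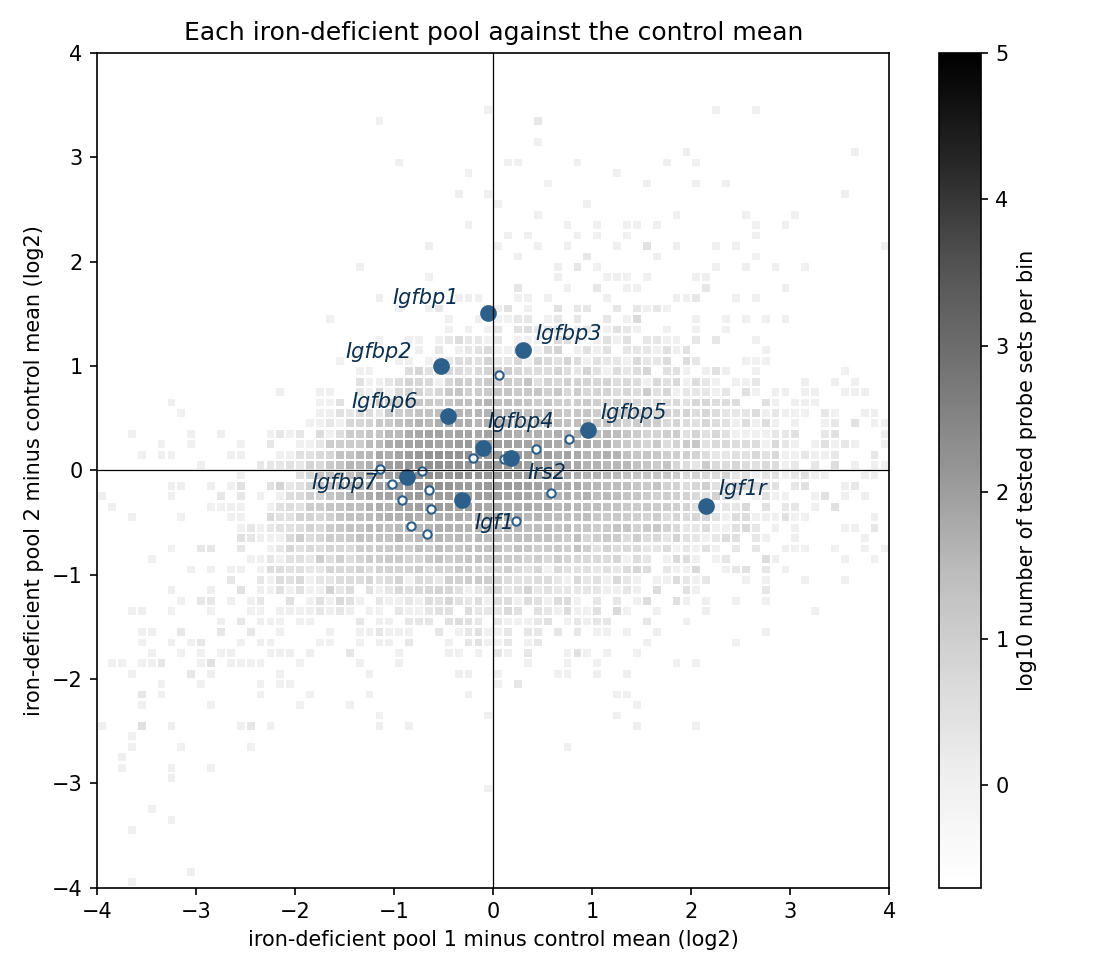
Log2 difference of iron-deficient pool 1 (horizontal) and pool 2 (vertical) from the control mean. Grey squares count tested probe sets per bin of the plane, filled circles are the brightest probe set of each of the 10 genes and open circles their other tested probe sets. Igfbp1 to Igfbp3 lie high on the vertical axis (1.51, 1.00 and 1.15) and Igf1r far along the horizontal (2.15), and 89 tested probe sets lie outside the axes.

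The partners of the axis were described through lists of pathway genes, on the brightest tested probe set of each gene. Over all 12997 genes the median log2 difference was -0.14, and the diets did not overlap for 1697 with iron-deficient higher (13.1%) and for 3375 with it lower (26.0%). In no list did a gene pass an adjusted p of 0.05 by limma. Of the other ligands and receptors, 4 of 7 were tested, of which 2 had both iron-deficient values above the controls and 0 below, with a median of 0.38. Igf2, the main fetal IGF, read 6096.8 and 5133.3 in iron-deficient pools and 3497.7 and 4260.3 in control pools (0.54 ± 0.33). Igf2r, which clears Igf2 from the cell surface, read 2593.1 and 1355.9 in iron-deficient pools and 1076.4 and 1073.2 in control pools (0.80 ± 0.42). Dimmer probe sets of both overlapped between the diets. Insrr, an orphan relative of the insulin receptor, differed by -0.44 ± 0.43, and Ins2 and Igfals were too dim to be tested.

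Receptor substrates and adaptors had 10 of 12 members tested, 2 higher and none lower in both pools, and a median of -0.08. Grb10, an adaptor that dampens receptor signalling, differed by 0.57 ± 0.41, the phosphatase Ptpn1 by -0.64 ± 0.49 and the adaptor Grb14 by -0.51 ± 0.42. The diets overlapped for Ptpn1 and Grb14, and for Grb10 the difference was 0.14 in iron-deficient pool 2 alone. The insulin receptor gene Insr (0.23 ± 0.46) and Irs1 (-0.02 ± 0.33) overlapped as well.

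In the phosphoinositide 3-kinase, Akt and FoxO branch, 17 of 20 genes were tested, 3 higher and 2 lower in both pools, with a median of 0.01. Trib3, a stress-induced pseudokinase that binds Akt, read 43.8 and 128.0 in iron-deficient pools, against 20.2 and 24.3 in control pools (1.76 ± 0.57, limma unadjusted p = 0.0235 and adjusted p = 0.852). A second Trib3 probe set differed by 1.71 ± 0.50. Pik3r3, a regulatory subunit of the kinase, read 306.8 and 383.1 in iron-deficient pools and 661.3 and 611.3 in control pools (-0.89 ± 0.32), with little spread within either diet. Foxo3, a transcription factor that Akt keeps out of the nucleus, differed by 0.81 ± 0.48, or 0.21 in iron-deficient pool 2 alone, and its dimmest probe set had the opposite sign. Akt1 read 1067.9 and 1135.6 in iron-deficient pools and 1073.1 and 1145.0 in control pools.

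The mTOR branch had 19 of 20 genes tested, 1 higher and 1 lower in both pools, and a median of -0.03. Ddit4, a hypoxia-induced restrainer of mTOR complex 1, was the higher one, at 5799.5 and 3835.0 in iron-deficient pools, against 1843.3 and 2384.5 in control pools (1.17 ± 0.37, limma unadjusted p = 0.023 and adjusted p = 0.852). Rictor, a subunit of mTOR complex 2, read 601.8 and 119.2 in iron-deficient pools and 149.1 and 103.6 in control pools, a layout like that of the brightest Igf1r probe set. The stress-responsive Sesn2 differed by -0.78 ± 0.51.

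Proteases that release IGFs and their inhibitors held the smallest p of these lists. Of 15 genes, 14 were tested, 2 higher and 5 lower in both pools, with a median of -0.32. Stc2, a secreted inhibitor of the pappalysin proteases, read 288.1 and 463.4 in iron-deficient pools, against 73.5 and 92.3 in control pools (2.15 ± 0.38, limma unadjusted p = 0.00186 and adjusted p = 0.698). Its other probe sets differed by 2.50 ± 0.31 and 2.08 ± 0.59, and the 3 values were 1.81, 2.52 and 1.28 in iron-deficient pool 1 and 2.49, 2.48 and 2.87 in pool 2. Pappa, the pappalysin that cuts Igfbp4, read 213.0 and 110.1 in iron-deficient pools and 95.2 and 58.7 in control pools (1.03 ± 0.47). Its other 2 probe sets overlapped between the diets (0.34 ± 0.37 and 1.14 ± 0.68). The paralogue Pappa2 read 30.9 and 38.2 in iron-deficient pools and 76.2 and 61.8 in control pools (-1.0 ± 0.33). Stc1, the relative of Stc2, differed by 0.03 ± 0.31.

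**Figure D5:**
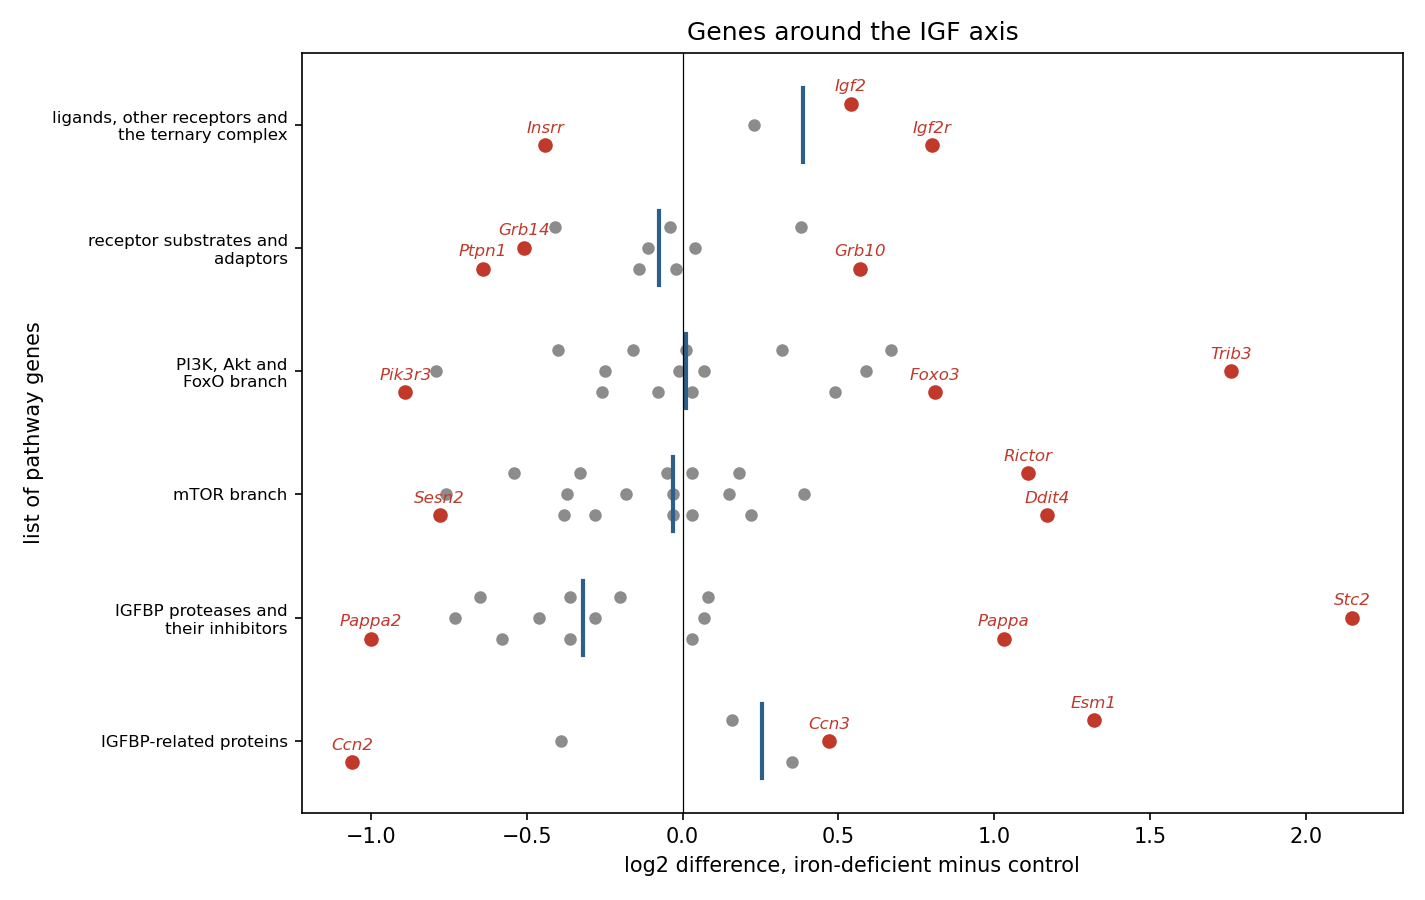
Difference in log2 signal (iron-deficient minus control) for the brightest tested probe set of each gene in 6 pathway lists. Red points are the 3 genes with the smallest p in each list, grey points the others (offset vertically only to keep them apart) and blue bars list medians. Stc2 at 2.15 and Trib3 at 1.76 lie farthest to the right.

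Proteins related to the binding proteins had 6 of 9 genes tested, 2 higher and 2 lower in both pools, with a median of 0.25. Esm1, an endothelial proteoglycan core, read 176.7 and 184.1 in iron-deficient pools, against 80.7 and 64.7 in control pools (1.32 ± 0.32, limma unadjusted p = 0.00782 and adjusted p = 0.852). Its pools lay close within each diet. Ccn2, a matrix-associated growth regulator, read 137.4 and 399.6 in iron-deficient pools and 538.0 and 441.8 in control pools (-1.06 ± 0.56), and Ccn3 differed by 0.47 ± 0.34, with 1.01 ± 0.37 on a second probe set.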

How the data were processed

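Per the labels' protocols, each of the 4 kidney RNA pools was hybridised to its own array. The series holds deposited intensity values on a linear scale, from 0 to 13762.6, which the authors scaled so that each array's mean after trimming 2% at each end is 250.0. RMA appears in the submitters' processing notes, yet the intensities are not on a log scale and the arrays differ in distribution, so how they were computed is not settled here. No column was left unused.

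Zeros were set to 0.1 and intensities turned to log2. Control probe sets (64) and the lowest 40% of the other 45037 by mean log2 intensity were left out. Diets were compared by limma 3.58.1 under R 4.3.3 (lmFit and eBayes, two-sided, diet as the only term, 2 residual and 3.49 prior degrees of freedom), with Benjamini-Hochberg adjustment over 27022 probe sets. The procedure was tested on simulated data. An exact permutation test of 2 pools against 2 cannot reach the threshold. The background of an array was its brightest unspiked control probe set out of 27 (14.4 and 13.3 in iron-deficient pools, 8.5 and 8.2 in control pools), and all 25 tested member probe sets exceeded it in every pool.

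Members and lists were chosen with earlier results of these data known. Members were named whatever their values, list genes as the 3 with the smallest p. Single marker and hypoxia genes and Insr, Irs1, Akt1 and Stc1 were named after their values were seen. Genes with several probe sets were represented in lists by the brightest. Of 18 list genes named by rule, 11 had several tested probe sets, and only those of Foxo3 differed in sign. Symbols come from the platform annotation, and an update through the RefSeq table of GRCm38.p6 changed 0. Proximal tubule and podocyte marker lists were analysed too. All 10 proximal tubule markers were lower in both iron-deficient pools (26.0% of all genes), with a median log2 difference of -2.6. Of 5 tested podocyte markers, 1 was higher without overlap (13.1% of all genes) and 3 were lower, with a median of -0.59. Their part in the member signals was not tested. Members of the other lists that are not mentioned were not analysed here or are counted only. The number of arrays limits the precision.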

Additional observations from a re-analysis of the deposited data

Results flagged for a closer look

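The remaining Igf1r probe set, 1446303_at, was too dim for the test and so stands outside the comparison. It read 20.1 and 17.1 in iron-deficient pools (mean 18.6), above the array background of 14.4 and 13.3, against 11.8 and 6.0 in control pools, of which only the first exceeded its background of 8.5 and 8.2. The difference was not tested.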

How the results depend on the processing

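No member probe set passed an adjusted p of 0.05 by limma under any alternative run. Over the whole array 0 probe sets were called (1069 at an unadjusted p under 0.05), against 13 with 1 probe set per gene and 0 to 75 when 1 pool was left out, a fit in which the lone pool is assumed to vary like the other diet. With the pool number as a replicate block 479 were called. The deviations of same-numbered pools correlated at 0.36, but the labels give no shared litter or day, so the pools share only a number. Diets did not overlap for 3 of 10 members with 1 probe set per gene (39.0% of all genes), and for 15 to 22 of 25 when 1 pool was left out, where fewer pools have to separate (55.5% to 87.5% of all probe sets).

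The share of higher among probe sets at an unadjusted p under 0.05 was 28.9% (309 higher, 760 lower), against 54.8% after median centring (581 and 479) and 42.9% after quantile normalization (460 and 612). Signs turned for the dimmest Igf1 probe set (0.07 after quantile normalization, 0.06 after median centring), for Igf1r 1426565_at (0.10 and 0.15) and, after quantile normalization alone, for the 2 brightest Igfbp4 probe sets (-0.17 and -0.06). The cause was not tested. When each pool was left out, differences ran from -0.05 to 1.51 for Igfbp1, -0.53 to 1.00 for Igfbp2, -0.46 to 0.52 for Igfbp6, -0.13 to 0.43 for Irs2, -0.49 to 0.23 for the dimmest Igf1 probe set, -0.34 to 2.15, -0.21 to 0.12 and -0.22 to 0.58 for Igf1r 1428967_at, 1426565_at and 1452108_at, -0.10 to 0.21 and -0.01 to 0.23 for the 2 brightest Igfbp4 probe sets and -1.14 to 0.01 for Igfbp7 1437804_at. For Igf1 1452014_a_at (-0.75 to -0.53), Igfbp3 1423062_at (0.30 to 1.15) and Igfbp5 1452114_s_at (0.39 to 0.96) the sign held. The arithmetic-mean filter was chosen after seeing the data and changed no sign.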
